A study of Mus musculus with 12 samples.

Results

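The response of Arc knockout dendritic cells to LPS was measured by setting the 3 arrays of LPS-treated knockout cells against the 3 arrays of untreated knockout cells, 6 of the 12 arrays in the study. Bone marrow-derived dendritic cells (BMDC) were grown from the marrow of 8-week-old Arc/Arg3.1 -/- mice on a C57BL/6 background, labelled male, in medium with GM-CSF at 20 ng/ml. The semi-adherent cells were taken on day 7. For treatment, LPS was given at 100 ng/ml over 30 min and then washed off 3 times, and the cells were harvested after 1 h more in fresh medium. The untreated groups received no LPS. The other 6 arrays hold wildtype cells of the same background and age, 3 untreated and 3 given the same LPS treatment. The knockout animals lacked Arc throughout, both groups of knockout cells alike, so these arrays do not separate a role of Arc during culture from one during stimulation. Cultures of this kind are a mixture of the cells that GM-CSF supports. Expression was read on whole-transcript arrays as 1 log2 signal per probe set, so a difference of 1 is a 2-fold change, and 22180 genes with a probe set of their own were tested. A gene was called where limma's adjusted p was below 0.05, adjusted by Benjamini and Hochberg's method over the whole table. Each title carries a biological replicate number, but no label says whether that number stands for an animal or a culture of its own, so p-values measure only how far these samples spread.

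LPS, a component of the outer membrane of Gram-negative bacteria, is bound by Cd14 and by Ly96 (MD-2) and signals through Toll-like receptor 4. One arm of the pathway, through Myd88, Irak and Traf6, activates NF-kB and the MAP kinases. The other, through Ticam1 (TRIF) and Tbk1, leads to interferon beta. In dendritic cells the early transcripts of this response encode cytokines, chemokines, transcription factors and the inhibitors that later shut the response off, and the later steps of maturation raise antigen presentation and migration. Arc itself is an immediate early gene studied mainly in neurons.

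Arc, the targeted gene, was at 7.81, 7.88 and 8.05 on the untreated and 8.03, 7.68 and 8.02 on the LPS-treated knockout arrays, and at means of 9.39 and 9.40 on the untreated and LPS-treated wildtype arrays. LPS did not measurably move it in knockout cells (log2 difference -0.01, SE 0.14, 95% interval -0.32 to 0.31). The dendritic cell genes were well detected in untreated knockout cells: Itgax (CD11c) was at 10.41, 11.00 and 10.98, the chemokine receptor Ccr7 at 12.93, 12.73 and 12.88, and H2-Ab1, a chain of MHC class II, at 13.37, 13.39 and 13.44, against a median of 5.97 for probe sets that carry no gene. Xcr1, a marker of the cross-presenting subset, was near that median, at 6.12 to 6.37. The label male was not borne out on 4 of the 6 knockout arrays. On replicates 1 and 3 of both groups Xist, transcribed from the inactive X of female cells, was at 11.22 to 11.85, and 3 genes of the Y chromosome lay between 3.33 and 4.63. On both arrays of replicate 2 Xist was at 5.76 and 5.63 and those 3 genes lay between 8.63 and 9.89. Genes of small nucleolar and other small RNAs, 86 in number, had a median of 11.05, 10.64 and 10.44 on the untreated arrays and 10.90, 9.87 and 9.87 on the LPS-treated ones. Of them 1 was called higher and 0 lower, and 41 were called lower with the replicate block described next. Array medians over all genes lay between 6.50 and 6.67.

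LPS raised 661 genes (2.98% of those tested) and lowered 650 (2.93%). The 2 sides differed in size. Among the genes that rose, 230 did so at least 2-fold (1.04%), of which 28 rose between 4-fold and 8-fold and 23 by 3 or more on the log2 scale. Among those that fell, 71 did so at least 2-fold (0.32%), and 3 passed 4-fold. The median absolute change was 0.81 for genes that rose and 0.62 for genes that fell. Of the 230 genes, 55 had an untreated mean below a log2 signal of 7, and 8 of these went on to a mean of 9 or more. Of the 71, 35 ended with an LPS mean below 7. A fold is not exact where 1 of the groups lies near or below background, as for Ifnb1, Il10, Cd70, Mir221 and Mir222 before LPS. The replicate number, which paired these arrays in the data, was also fitted as a block. This called 2312 genes (10.4%), 952 higher (4.29%) and 1360 lower (6.13%), among them all 661 and all 650. The lower side therefore depended more on the design than the higher side. It held 397 genes without LPS replicate 1, 979 without LPS replicate 2, 239 without LPS replicate 3, and 298, 333 and 233 without untreated replicates 1, 2 and 3. The higher side held 376 genes without LPS replicate 3 and 439, 431 and 424 without untreated replicates 1, 2 and 3. Without both knockout arrays of replicate 2 it held 435. Without the LPS arrays of replicates 2 and 3 in both genotypes, those with low small RNA signal, 269 genes were called higher and 293 lower. The part of sex and of small RNA signal in these counts was not tested. Of 162 genes called and named by a fixed rule, 113 kept the call when any 1 of the 6 knockout arrays was left out, and those that did not are called "array-dependent", with their highest adjusted p over the 6 fits. The rule took the largest changes overall and within each gene list. Ptges, Il12a, Il10, Il1rn, Csf2, Csf3, Tlr3, Tlr4, Tlr7, Myd88, Ticam1, Relb, Egr2, Myc, Irf3, Irf7, Nos2, Itgax, Flt3, Xcr1 and Cd3e are given besides, and were picked with the values known.

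**Figure D1:**
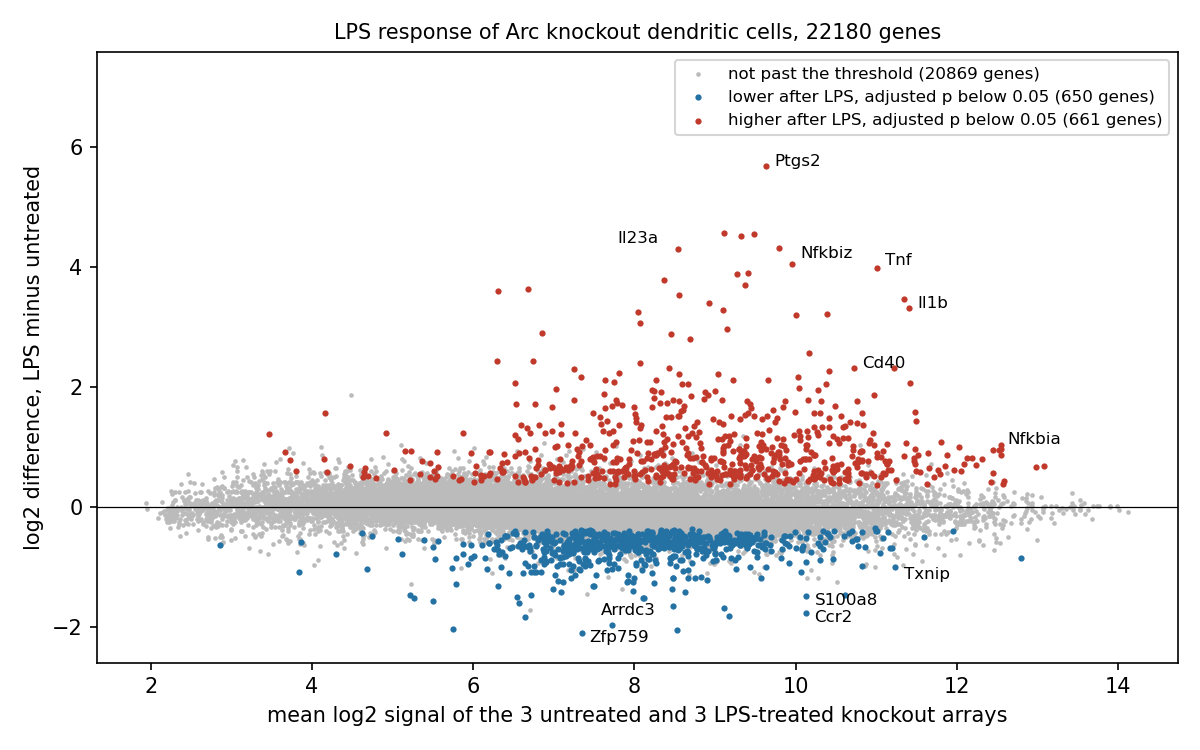
Log2 difference between LPS-treated and untreated Arc knockout cells (vertical axis) against the mean log2 signal of the 6 knockout arrays (horizontal axis), 1 point per gene for 22180 genes, with the 661 genes called higher in red and the 650 called lower in blue. The increases reach 5.69 for Ptgs2, while no decrease passes -2.11, the value of Zfp759.

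Inflammatory mediators led the increases. Ptgs2, the inducible cyclooxygenase that makes prostaglandin precursors, was at 7.67, 6.44 and 6.27 on the untreated arrays and 12.37, 12.59 and 12.49 on the LPS arrays. This was a 51.7-fold rise (log2 5.69, SE 0.29, adjusted p = 3.06e-06 by limma). Few other genes of its pathway were called. Of 20 genes of eicosanoid enzymes and receptors, 2 rose and 0 fell, beside 2.98% and 2.93% of all genes. In 8 of the 20 both group means were below 7. With the replicate block 2 rose and 3 fell, beside 4.29% and 6.13% of all genes, and without LPS replicate 2, 3 fell. The second gene that rose was the prostaglandin receptor Ptger4, which went from 10.87, 10.60 and 10.95 to 11.27, 11.27 and 11.38 (1.41-fold, array-dependent, highest adjusted p 0.116 without LPS replicate 3). Ptges, the synthase that turns the product of Ptgs2 into prostaglandin E, was at 6.35 to 6.58 before and 6.55 to 6.81 after LPS (log2 0.16, SE 0.12, adjusted p = 0.506). The leukotriene genes Alox5ap, Lta4h and Ltc4s were at log2 differences of -0.41, -0.64 and -0.19 and not called.

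Cytokine genes held several of the largest increases. Of 29 measured, 16 rose, 14 of them at least 2-fold, and 1 fell, with a median log2 difference of 0.64 against -0.004 over all genes. Il23a, the p19 subunit of interleukin 23, was the tightest: it was at 6.38, 6.38 and 6.40 before LPS and 10.56, 10.75 and 10.77 after it (19.8-fold, SE 0.12, adjusted p = 3.38e-08). Il1a went from 7.95, 7.59 and 7.35 to 11.30, 12.37 and 12.17 (19.9-fold, SE 0.28). Tnf was already expressed, at 9.24, 9.42 and 8.39, and reached 12.56, 13.33 and 13.16 (15.9-fold, SE 0.27). In all 3 genes the lowest LPS array stood more than 3 log2 units above the highest untreated one. Il1b ended among the brightest genes on the arrays, at 13.07, 13.10 and 13.05, from 10.58, 9.15 and 9.52. Its LPS arrays lay far closer together than its untreated ones. Tnfsf9 (4-1BB ligand), which co-stimulates T cells, rose 13.1-fold from 7.72, 7.24 and 7.59 to 11.11, 11.22 and 11.36.

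The other cytokine genes that rose ranged from 0.48 to 3.20 on the log2 scale. Among them, chosen after their values were seen, Il6 went from 8.65, 8.32 and 8.24 to 11.87, 11.10 and 11.84, a 9.17-fold rise. Il12b, the p40 subunit that interleukins 12 and 23 share, rose 5.01-fold from 10.60, 9.51 and 10.09 to 12.45, 12.11 and 12.61. The p35 subunit Il12a stayed at 6.12 to 6.19 before and 6.19 to 6.51 after LPS and was not called (log2 0.23, SE 0.11), so of the 3 subunits of these interleukins, p19 and p40 passed the threshold. Il10, an inhibitory cytokine, rose 3.29-fold, but only to 7.29, 7.53 and 7.34, and Il1rn, the interleukin 1 receptor antagonist, rose 2.28-fold to 9.41, 9.98 and 9.93. Csf2 and Csf3, the genes of GM-CSF and G-CSF, were near background in both groups, at 5.97 to 6.28 and 5.58 to 5.92. Il15 was the only cytokine gene called lower, from 9.79, 9.40 and 9.67 to 9.03, 8.49 and 8.79 (1.8-fold, array-dependent, highest adjusted p 0.0884 without untreated replicate 1).

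Of 23 chemokine genes measured, 10 rose and 0 fell, and all 10 rose at least 2-fold. Of the 23, 6 had both group means below a signal of 7. Cxcl10, which draws activated T cells, went from 7.20, 6.78 and 6.53 to 10.75, 11.80 and 11.65 (23.7-fold, SE 0.28). The neutrophil attractants Cxcl2 and Cxcl1 rose 22.9-fold and 11.6-fold. Cxcl2 went from 7.75, 7.10 and 6.34 to 11.19, 12.03 and 11.52, and Cxcl1 from 6.99, 6.39 and 6.99 to 10.39, 10.19 and 10.39. Among the CC chemokines, Ccl4 rose 15-fold to 10.72, 11.72 and 11.66, and Ccl3 rose 11.1-fold to 12.61, 13.39 and 13.25. Ccl2, the ligand of Ccr2, and Cxcl3, chosen after their values were seen, rose 9.75-fold and 9.51-fold. By contrast Ccl17, Ccl22 and Ccl5 were at 13.41 to 13.68 on every knockout array, with log2 differences of -0.03, 0.11 and -0.12, and were not called. These signals lie near the upper end of the arrays' range.

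**Figure D2:**
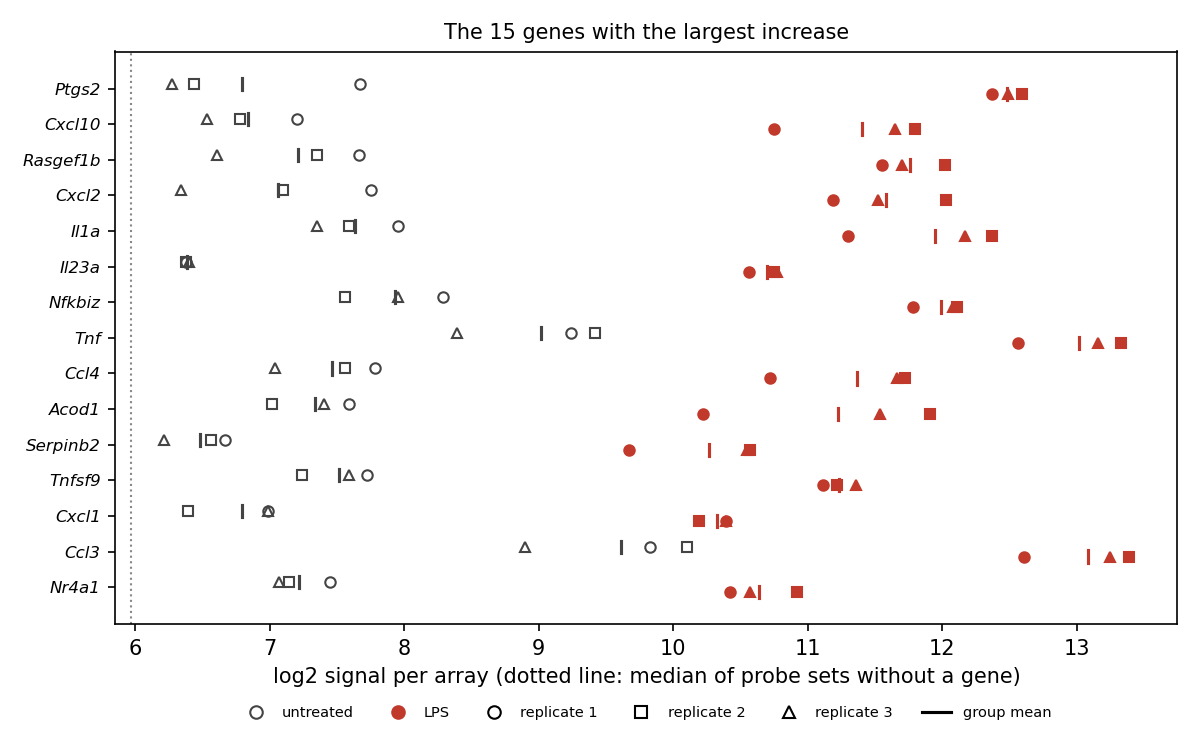
Log2 signal on each of the 6 knockout arrays (horizontal axis) for the 15 called genes with the largest increase, with open symbols for untreated and filled symbols for LPS-treated arrays, the symbol's shape for the replicate number, a tick at the group mean and a dotted line at 5.97, the background median. The genes were selected to have no overlap between LPS and untreated arrays, so that gap is not a result. LPS replicate 1 is the lowest LPS array for 14 of the 15.

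The difference between LPS and untreated arrays was not equal across the replicate numbers, each of which has 1 array per group. The median rise of the 230 genes was 1.31 in replicate 1, 1.64 in replicate 2 and 1.49 in replicate 3, each LPS array against the untreated array of its number. LPS replicate 1 was the lowest of the LPS arrays in 137 of the 230 genes, and in 14 of the 15 with the largest increase. The untreated arrays differed too: untreated replicate 1 was the highest of them in 99 of the 230 and in 12 of the 15. Untreated replicate 2 was the lowest in 109 of the 230. The part of starting level and of response in the unequal rises was not tested. Acod1, which makes itaconate, showed the widest gap among the 15, with 10.22 on LPS replicate 1 against 11.91 and 11.54 on the others. Among the 71 genes that fell at least 2-fold, the median change was -1.32, -1.03 and -1.31, with LPS replicate 2 the highest of the LPS arrays in 41. LPS replicate 1 was also the LPS array whose small RNA signal lay in the untreated range. Whether that signal is linked to the smaller rise was not tested.

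Most genes of the receptor and its kinases were not called. Of 21 genes of the TLR4 complex, its adaptors and kinases, 6 rose, 1 fell and 14 were not called. Cd14 rose 3.39-fold, from 8.47, 8.48 and 8.61 to 9.79, 10.77 and 10.29, and Map3k8 (Tpl2), the kinase that feeds the ERK branch, rose 2.2-fold. Tbk1 rose 1.65-fold (log2 0.72, SE 0.12). Irak2 and Traf6 were 1.47-fold and 1.40-fold higher and array-dependent, with highest adjusted p of 0.121 and 0.111, and the called fall of Tab1 (1.45-fold) was so too, at 0.0716. Without any 1 of the 6 arrays, 3 or 4 genes of this list were called higher. Tlr4 itself was at 8.53, 9.05 and 8.69 before and 8.18, 8.32 and 8.17 after LPS. Every LPS array was below every untreated one, as for 3284 of 22180 genes (14.8%). The difference missed the threshold (log2 -0.54, SE 0.14, adjusted p = 0.0564, and 0.0129 with the replicate block). Ly96, Myd88 and Ticam1 were at log2 differences of -0.14, 0.36 and -0.04 and not called.

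Inhibitors of NF-kB rose together with its Rel subunit. Of 11 NF-kB subunits and IkB proteins, 6 rose and 0 fell, and with the replicate block 9 did. Nfkbiz (IkB-zeta), a nuclear cofactor that NF-kB needs at secondary targets, went from 8.29, 7.56 and 7.95 to 11.78, 12.11 and 12.08 (16.6-fold, SE 0.17). Nfkbid (IkB-NS) rose 4.31-fold to 10.13, 10.39 and 10.30. Nfkbia (IkB-alpha), which holds NF-kB in the cytoplasm, was abundant before LPS at 12.14, 11.95 and 12.06 and rose 1.93-fold to 12.95, 12.98 and 13.08. Rel rose 1.6-fold to 13.45, 13.40 and 13.41, whereas Rela was at a log2 difference of 0.41 (SE 0.13) and was not called (adjusted p = 0.105, and 0.0319 with the block). Relb was at 0.07 (SE 0.15). Of 18 ubiquitin regulators around A20, 7 rose and 0 fell. Tnfaip3 (A20), which removes the ubiquitin chains that carry the signal, went from 10.53, 10.08 and 10.56 to 12.37, 12.46 and 12.52 (4.16-fold, SE 0.13), and Tnfaip2 rose 4.13-fold to 11.22, 11.51 and 11.47. Peli1 and N4bp1 each rose 1.78-fold.

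The stretches below show where RefSeq promoters of genes described here (250 bases before to 50 after the start, GRCm38.p6) held the letters of an NF-kB site. The letters searched, on both strands, were GGG, any 2 bases, TT, any base and CC. Of 32851 promoters, 4.79% held them, as did 5.7% of the 16990 tested genes with a promoter in the table, 56 of 516 genes that rose (10.9%), 23 of 172 that rose at least 2-fold (13.4%) and 39 of 534 that fell (7.3%). Stretches were sought in 20 genes that rose, and 11 held a match before the start to these letters or to the interferon element described below. The others, Nfkbiz, Ccl3 and Ccl4 among them, gave no stretch. A match is a run of letters, not a measured binding site. The windows are chr12:55492648-55492696 (minus strand) for Nfkbia, chr7:30422160-30422209 (plus) for Nfkbid, chr10:19015411-19015442 (minus) for Tnfaip3, chr5:90903782-90903850 (plus) for Cxcl2 and chr5:90891136-90891203 (plus) for Cxcl1. They are printed in the direction of the gene, with the matching letters in capitals.
Nfkbia: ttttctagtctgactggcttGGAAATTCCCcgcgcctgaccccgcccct
Nfkbid: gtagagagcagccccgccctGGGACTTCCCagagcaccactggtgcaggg
Tnfaip3: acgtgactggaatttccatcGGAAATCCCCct
Cxcl2: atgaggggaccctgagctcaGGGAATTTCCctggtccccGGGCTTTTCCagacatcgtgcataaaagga
Cxcl1: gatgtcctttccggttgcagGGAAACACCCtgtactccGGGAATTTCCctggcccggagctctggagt
In Nfkbia the match nearest the start began at position -29, in Tnfaip3 at -12 and in Nfkbid at -226. Cxcl2 and Cxcl1 each held 2 matches, the nearer ones at -78 and -71.

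Transcription factors of the immediate early class were partly raised. Of 15 AP-1 genes, 10 rose and 0 fell, with a median log2 difference of 0.59, and 6 of them were called without untreated replicate 2. Fosb and Fos came up from low signals, Fosb from 6.54, 6.66 and 6.87 to 8.87, 9.42 and 8.48 (4.71-fold) and Fos from 7.14, 7.05 and 6.57 to 8.67, 8.69 and 8.60 (3.33-fold). Fosl2 and Atf3, a repressor of cytokine genes, rose 2.96-fold and 2.97-fold, with Fosl2 at 10.21, 10.21 and 10.18 after LPS. Jdp2 rose 2.83-fold. Jund was at 9.23 to 9.63 before and 9.26 to 9.73 after LPS (log2 0.03, SE 0.16), and Batf3, a factor of cross-presenting dendritic cells, at -0.31 (SE 0.11), neither called. Of 31 Egr, Nr4a, Ier, Klf and related early genes, 17 rose and 0 fell, and 11 were called without LPS replicate 3. Nr4a1, an orphan nuclear receptor, rose 10.6-fold from 7.45, 7.14 and 7.07 to 10.42, 10.92 and 10.57, and Nr4a2 rose 3.46-fold. Egr1 and Egr3 rose 3.87-fold and 3.68-fold, and the kinase Plk2 3.85-fold. Egr2 (log2 0.58, SE 0.25), Myc (-0.02, SE 0.19) and Klf6 (0.08, SE 0.11) were not called.

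Genes that end signalling were among those that rose. Of 12 dual specificity phosphatases, which remove phosphate from MAP kinases, 7 rose and 2 fell. Dusp2 went from 7.53, 7.12 and 7.15 to 9.49, 9.68 and 9.56 (4.96-fold), Dusp14 rose 4.66-fold, and Dusp1, which acts on p38 and JNK, rose 2.64-fold from 10.08, 10.10 and 10.01 to 11.46, 11.43 and 11.50. Dusp6, a phosphatase of ERK, moved the other way, from 8.47, 8.71 and 8.45 to 7.51, 7.51 and 6.89 (2.36-fold lower, log2 -1.24, SE 0.18, adjusted p = 0.00269). Dusp22 was 1.41-fold lower (array-dependent, highest adjusted p 0.0916). Of 15 regulators of mRNA decay, 4 rose and 1 fell. Zc3h12a (Regnase-1), which cuts cytokine transcripts, and its relative Zc3h12c rose 2.68-fold and 2.70-fold, whereas Zc3h12d fell 1.72-fold, from 8.52, 8.51 and 8.58 to 7.75, 7.64 and 7.89. Zfp36 (TTP) was 1.50-fold higher and array-dependent (highest adjusted p 0.0704).

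Interferon beta and a subset of its targets were raised at this time. Ifnb1 came from below the background median, at 5.17, 4.88 and 5.20, to 7.23, 7.69 and 7.65 (5.43-fold, SE 0.15, adjusted p = 8.77e-06). Of 29 interferon response genes, 9 rose, 1 fell and 19 were not called, with a median log2 difference of 0.07. Ifit1 went from 6.99 to 7.06 on the untreated arrays to 9.61, 9.86 and 10.21 (7.35-fold), Isg15, a ubiquitin-like modifier, rose 6.97-fold from 7.40, 7.18 and 7.28 to 9.81, 10.13 and 10.32, and the antiviral gene Rsad2 rose 3.85-fold. Ifi205 rose 3.66-fold, with untreated arrays as far apart as 7.42 and 8.65, and since the genes of the Ifi200 cluster resemble each other its probes may read more than 1 of them. Mx1, another antiviral gene, was at 10.60, 10.33 and 10.97 before and 10.25, 10.36 and 10.69 after LPS and not called (adjusted p = 0.602). Igtp, a GTPase induced by interferon gamma, was 1.52-fold lower and array-dependent (highest adjusted p 0.16 without LPS replicate 3). Of 25 interferon regulatory factors, JAKs, STATs and SOCS genes, 4 rose and 1 fell: Socs3, a feedback inhibitor of STAT signalling, rose 3.40-fold, Irf1 2.29-fold and Stat5a 1.8-fold. Irf4 (1.49-fold) and the fall of Socs6 (1.38-fold) were array-dependent, at 0.0621 and 0.135. Irf3 and Irf7 were at log2 differences of -0.26 and 0.01 and not called.

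Some of these promoters held the letters of an interferon-stimulated response element, searched on both strands as GAAA, any 2 bases and GAAA. They stood in 3.44% of all promoters, in 3.87% of tested genes with a promoter, in 22 of 516 (4.26%) of those that rose, in 14 of 172 (8.14%) of those that rose at least 2-fold and in 27 of 534 (5.06%) of those that fell. The windows are chr4:156200855-156200916 (minus strand) for Isg15, chr19:34640710-34640833 (plus) for Ifit1, chr12:26456543-26456592 (minus) for Rsad2 and chr5:92348963-92349122 (minus) for Cxcl10, which held 1 match to each of the 2 elements. The capitals mark matches to either element.
Isg15: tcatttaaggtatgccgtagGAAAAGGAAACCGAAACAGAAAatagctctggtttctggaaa
Ifit1: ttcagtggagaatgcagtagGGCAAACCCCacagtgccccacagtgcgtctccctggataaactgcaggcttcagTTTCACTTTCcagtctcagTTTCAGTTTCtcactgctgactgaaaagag
Rsad2: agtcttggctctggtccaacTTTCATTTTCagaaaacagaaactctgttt
Cxcl10: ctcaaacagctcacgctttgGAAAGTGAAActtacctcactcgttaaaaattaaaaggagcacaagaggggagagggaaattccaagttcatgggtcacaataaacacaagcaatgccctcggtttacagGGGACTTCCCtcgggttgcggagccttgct
In Isg15 the capitals hold 3 overlapping matches, the nearest at position -66 from the start. Ifit1 held 2, the nearer at -85, and 1 match to the NF-kB letters farther out.

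Molecules that act on T cells rose, and no gene of antigen presentation was called. Of 18 co-stimulatory and checkpoint genes, 10 rose and 0 fell (median log2 difference 0.66). Cd40, the receptor for T cell help, went from 9.71, 9.41 and 9.61 to 11.82, 11.80 and 12.04 (4.96-fold, SE 0.14). Cd70 rose 3.27-fold, Havcr2 (Tim-3) 2.38-fold and Cd44 2.36-fold. Cd69 was 2.75-fold higher and array-dependent (highest adjusted p 0.0773 without untreated replicate 3). Cd80 and Cd86, chosen after their values were seen, were high before LPS, at 11.66 to 12.12 and 11.01 to 11.21, and rose 1.75-fold and 1.81-fold. Cd83 was at 0.29 (SE 0.12) and not called. Of 13 MHC class II genes and 15 MHC class I genes, 0 were called in either direction, with medians of -0.11 in both lists. H2-Ab1 differed by 0.07 (SE 0.10, 95% interval -0.14 to 0.29). With the replicate block, 0 genes of class II and 1 of class I were called.

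Other receptor genes were called in both directions. Of 32 other pattern recognition receptors and partners, 5 rose and 5 fell, and with the replicate block 7 and 9 did. The shares of all genes were 2.98% and 2.93%, and 4.29% and 6.13% with the block. Without LPS replicate 2, 9 fell, and without untreated replicate 2, untreated replicate 3 or LPS replicate 3, 2 did. Clec4e (Mincle), a receptor for mycobacterial glycolipid, went from 9.48, 9.21 and 9.18 to 11.18, 11.81 and 11.66 (4.79-fold), Nlrp3, the sensor of the inflammasome, rose 4.31-fold, and Tlr2 rose 2.61-fold. Of the endosomal receptors for nucleic acids, Tlr8 fell 2.90-fold, from 8.79, 8.55 and 9.28 to 6.74, 7.57 and 7.70 (log2 -1.53, SE 0.28, adjusted p = 0.00922), and Tlr13 fell 1.79-fold. Tlr3 and Tlr7 differed by -0.28 (SE 0.18) and -0.35 (SE 0.31) and were not called. Tlr9 was 1.68-fold lower and array-dependent (highest adjusted p 0.0886), as were the fall of Pycard (0.113) and the rises of Casp4 (0.0716) and Clec7a (0.0555). Of 27 inhibitory and paired receptors, 6 fell and 1 rose, and 10 fell with the block, against 9 without LPS replicate 2 and 4 without untreated replicate 1, untreated replicate 3 or LPS replicate 3. Cd200r1, which restrains myeloid cells, went from 9.81, 10.34 and 10.12 to 7.69, 9.10 and 7.97 (3.56-fold lower, SE 0.32). Sirpb1c and Sirpb1a fell 3.95-fold and 2.32-fold. LPS replicate 2 kept the highest signal in Cd200r1 and in Sirpb1c, whose arrays read 5.94, 7.50 and 6.74. The Sirpb1 genes are near-identical copies, so their probes may not keep them apart. Trem1, which amplifies Toll-like receptor signals, rose 2.35-fold.

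Of 23 chemokine and chemoattractant receptors, 1 rose, 3 fell and 19 were not called, and with the replicate block 3 rose and 5 fell. Among all genes 2.98% rose and 2.93% fell, and 4.29% and 6.13% did with the block. Without LPS replicate 3, 1 fell. Ccrl2, which presents chemerin without signalling, rose 5.93-fold from 9.10, 8.64 and 8.91 to 11.16, 11.70 and 11.50. Ccr2, the receptor for Ccl2, fell 3.44-fold, from 10.85, 10.98 and 11.22 to 8.90, 9.51 and 9.30 (log2 -1.78, SE 0.19, adjusted p = 3.28e-04). Ccr1 and C3ar1 were 2.02-fold and 1.55-fold lower and array-dependent (highest adjusted p 0.0517 and 0.17). Ccr7, the receptor that guides dendritic cells to lymph nodes, was at 12.93, 12.73 and 12.88 before and 13.22, 12.78 and 13.09 after LPS, a difference of 0.19 (SE 0.13, 95% interval -0.10 to 0.47) that was not called.

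Actin and endocytosis genes, a theme of the study's title, were mostly level. Of 37 actin regulators, 2 rose and 0 fell, 5.41% of the list beside 5.91% of all genes in either direction. Both encode small GTPases: Rhof went from 7.80, 7.97 and 7.74 to 8.48, 8.82 and 8.81 (1.82-fold) and Rhob from 7.50, 7.22 and 7.36 to 8.24, 7.97 and 8.08 (1.67-fold). Arpc2, Actr3 and Cdc42, the most abundant members, differed by 0.01, -0.02 and 0.04 (SE 0.09 each). Of 29 endocytosis genes and Arc protein partners, 0 were called, also with the replicate block, and their differences lay between -0.33 and 0.27. Of 17 adhesion genes, 2 rose: Itgav 2.51-fold, and Itga5 1.8-fold (array-dependent, highest adjusted p 0.0618).

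**Figure D3:**
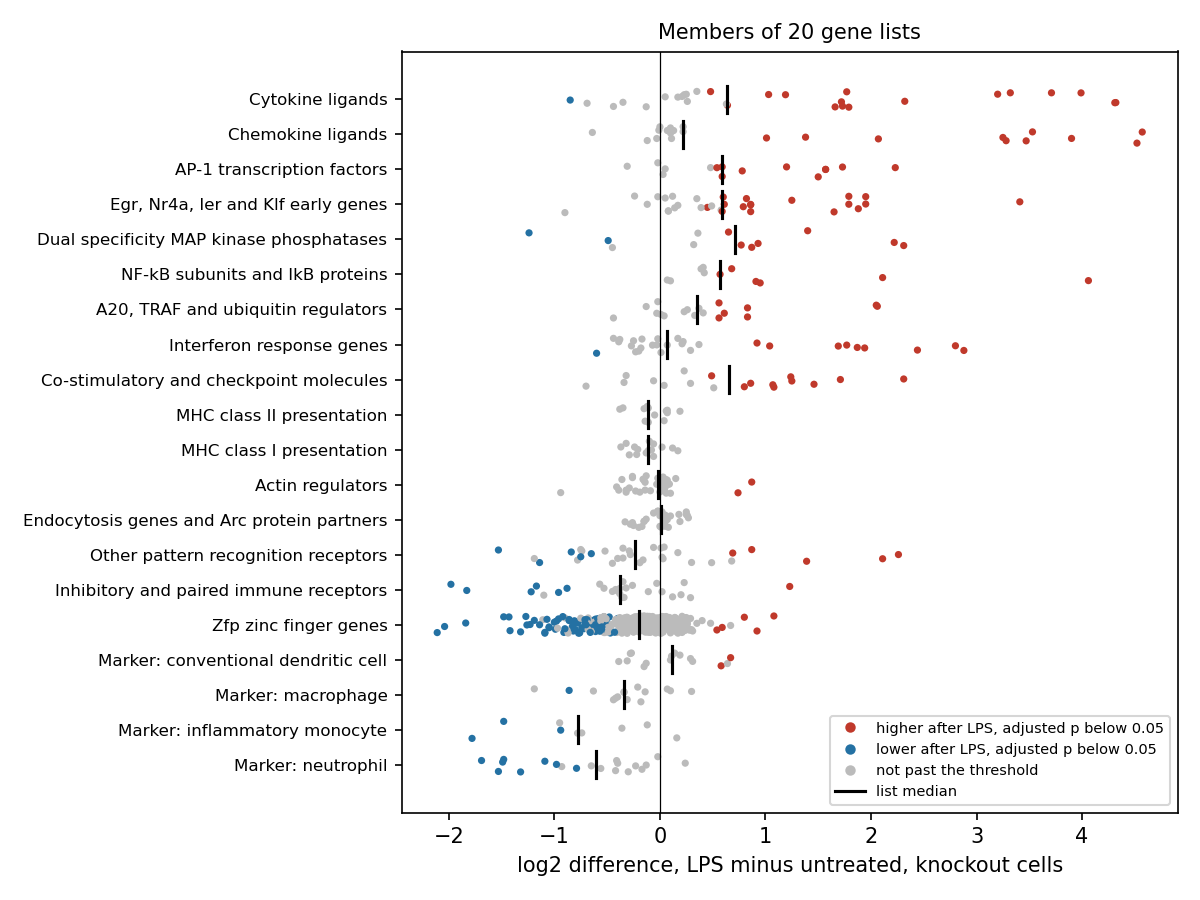
Log2 difference between LPS-treated and untreated knockout cells (horizontal axis) for each measured member of 20 gene lists, 1 point per gene, red where called higher, blue where called lower and grey otherwise, with a vertical tick at the median of each list. The cytokine, AP-1 and co-stimulatory lists have medians of 0.64, 0.59 and 0.66, the MHC, actin and endocytosis lists lie around 0, and the zinc finger list has 75 of 370 members called lower.

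Metabolic and survival genes changed one by one. Of 15 enzymes and transporters of itaconate, arginine and nitric oxide metabolism, 8 rose and 1 fell. Acod1 rose 14.8-fold from 7.59, 7.02 and 7.40 (log2 3.89, SE 0.42), Gch1, which makes the cofactor of nitric oxide synthase, rose 4.67-fold from 7.50, 7.50 and 7.32 to 9.54, 9.70 and 9.75, and the arginine transporter Slc7a1 rose 2.83-fold. Nos2, the inducible nitric oxide synthase, was still low at 6.97, 6.73 and 7.16 (log2 0.23, SE 0.12, not called). The histamine enzyme Hdc (2.31-fold higher) and the fall of Arg1 (1.93-fold) were array-dependent, at 0.148 and 0.106. Of 19 glycolysis genes, Slc2a6 alone was called, 2.77-fold higher, and with the block 2 were higher and 7 lower. Over all genes 5.91% were called, and 10.4% with the block. Ch25h, which makes an antiviral oxysterol, and Insig1 rose 3.17-fold and 2.55-fold, and the sterol exporter Abcg1 fell 1.68-fold, out of 16 sterol genes. Of 19 Bcl2 family and related genes, 4 rose and 0 fell, on both sides of the balance: the survival gene Bcl2l1 rose 4.15-fold from 7.66, 7.75 and 7.30 to 9.46, 9.69 and 9.71, and the death gene Bcl2l11 (Bim) rose 2.97-fold. Of 13 heat shock genes, 3 rose. Hspa1a and Hspa1b, neighbouring copies with nearly the same coding sequence, rose 8.41-fold and 4.31-fold, while the constitutive Hspa8 stayed at 13.08 to 13.15. Hspa5 was 1.47-fold higher and array-dependent (highest adjusted p 0.131).

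Signalling genes outside the core pathway added some of the largest changes. Rasgef1b, a Ras family exchange factor, went from 7.66, 7.35 and 6.61 to 11.55, 12.02 and 11.70 (23.4-fold, SE 0.23). The histone demethylase Kdm6b rose 3.98-fold to 10.89, 11.26 and 10.96, and Rapgef2 rose 3.13-fold. Both are on a list of 28 Ras, phosphodiesterase and signalling kinase genes, of which 10 rose and 0 fell. Of these, 6 were called without untreated replicate 1, LPS replicate 1 or LPS replicate 3. Kdm6b, a chromatin gene, is counted in this list and again among the chromatin genes below. Of 18 FOXO targets and alpha-arrestins, 4 fell and 1 rose. The riser was Irs2, an adaptor of the insulin receptor, at 4.14-fold higher. Arrdc3 fell 3.17-fold, from 9.39, 8.95 and 9.59 to 7.31, 8.03 and 7.59, Sesn1 fell 2.05-fold, and Txnip, an inhibitor of glucose uptake, fell 2-fold from 11.64, 11.63 and 11.95 to 10.69, 10.88 and 10.66. Of 19 genes of coagulation, plasminogen and matrix, 5 rose and 2 fell, and 3 and 0 did without untreated replicate 3. Serpinb2, an inhibitor of plasminogen activators, rose 13.7-fold from 6.67, 6.56 and 6.21 to 9.67, 10.57 and 10.55, Plat, one of the activators, rose 3.44-fold, and Mmp13 rose 2.54-fold. F3 (tissue factor), Plaur, Mmp8 and Timp2 were called but array-dependent, with highest adjusted p of 0.0944, 0.142, 0.129 and 0.124. Of 19 histone demethylases and other chromatin genes, Kdm6b and Tet2 rose and Kdm5b fell. The rise of Tet2 (1.7-fold) and the fall of Kdm5b (1.49-fold) were array-dependent, at 0.0509 and 0.0563. Jag1, a ligand of Notch, was the 1 gene called among 20 of that pathway, at 9.44, 9.17 and 9.65 after LPS (3.08-fold higher). Over all genes 5.91% were called, so this count is near the general share.

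G protein-coupled receptors and RGS proteins, which shut such receptors off, were called in both directions, though few calls held without every array. Of 29, 7 rose and 6 fell, beside 2.98% and 2.93% of all genes. Rgs2 rose 2.08-fold, from 10.41, 10.33 and 10.42 to 11.42, 11.54 and 11.37, with tight groups. The other named members of this list, Hcar2, Gpr84, Rgs1 and Gpr132 among those higher and Rgs18, P2ry6, Gpr141, Gpr34 and Gpr160 among those lower, were all array-dependent, with highest adjusted p from 0.0552 for Gpr34 to 0.144 for Rgs18. Without LPS replicate 3, 2 were called higher and 0 lower. Hcar2, a receptor for ketone bodies and niacin, was at 7.54, 8.45 and 7.36 before and 8.99, 10.00 and 9.15 after LPS, and P2ry6, a receptor for UDP, at 9.69, 10.11 and 10.02 before and 8.43, 9.55 and 8.81 after it.

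Of 17 circadian clock genes, 4 rose and 0 fell, beside 2.98% and 2.93% of all genes. Of the 4, 2 were called whichever of the 6 knockout arrays was left out. Per1, a repressor of the clock that is also induced acutely, rose 1.85-fold, from 8.53, 8.63 and 8.82 to 9.25, 9.90 and 9.49. Cry1, its partner, rose 1.67-fold, from 7.44, 7.38 and 7.39 to 7.97, 8.37 and 8.09. Nr1d2 and Bhlhe40 were 1.53-fold and 1.3-fold higher and array-dependent, with highest adjusted p of 0.107 and 0.162.

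Of the 650 genes that fell, 75 were zinc finger genes with the symbol Zfp and a number. Of 370 such genes measured, 75 (20.3%) fell and 5 rose, beside 2.93% and 2.98% of all genes. The median difference was -0.20, and 271 of the 370 (73.2%) lay below 0, against 50.7% of all genes. With a mean below 7, 21 of 149 fell (14.1%, against 0.923% of all genes at that signal). With a mean of 7 or more, 54 of 221 fell (24.4%, against 5.31% of all genes). At that signal 78.3% of the Zfp genes and 65% of all genes lay below 0, with medians of -0.26 and -0.11. The list mean on the arrays was 7.44, 7.39 and 7.46 before and 7.15, 7.17 and 7.17 after LPS. Zfp759 went from 8.61, 8.24 and 8.34 to 6.16, 6.44 and 6.26 (4.32-fold lower, SE 0.22, adjusted p = 2.89e-04). Zfp760 fell 2.70-fold, from 9.43, 9.26 and 9.34 to 7.84, 7.98 and 7.90, with little spread between the arrays of a group. Zfp975, Zfp934, Zfp273 and Zfp97 ended at or below a signal of 7 on every LPS array. Their falls of 3.58-fold, 2.79-fold, 4.11-fold and 2.68-fold may therefore be understated near background. Zfp273 also started from an untreated mean below 7, so it is not among the 15 largest decreases. Zfp719 rose 2.12-fold, from 7.88, 7.54 and 7.55 to 8.84, 8.66 and 8.72, Zfp667 1.90-fold, and Zfp617 (1.74-fold) and Zfp131 (1.46-fold) were array-dependent, at 0.0873 and 0.0806. The list held 46, 43 and 45 calls lower without untreated replicate 1, untreated replicate 3 and LPS replicate 3, and 30 without the LPS arrays of replicates 2 and 3. Many genes of this class lie in clusters of close copies, and a probe set may read more than 1 of them.

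**Figure D4:**
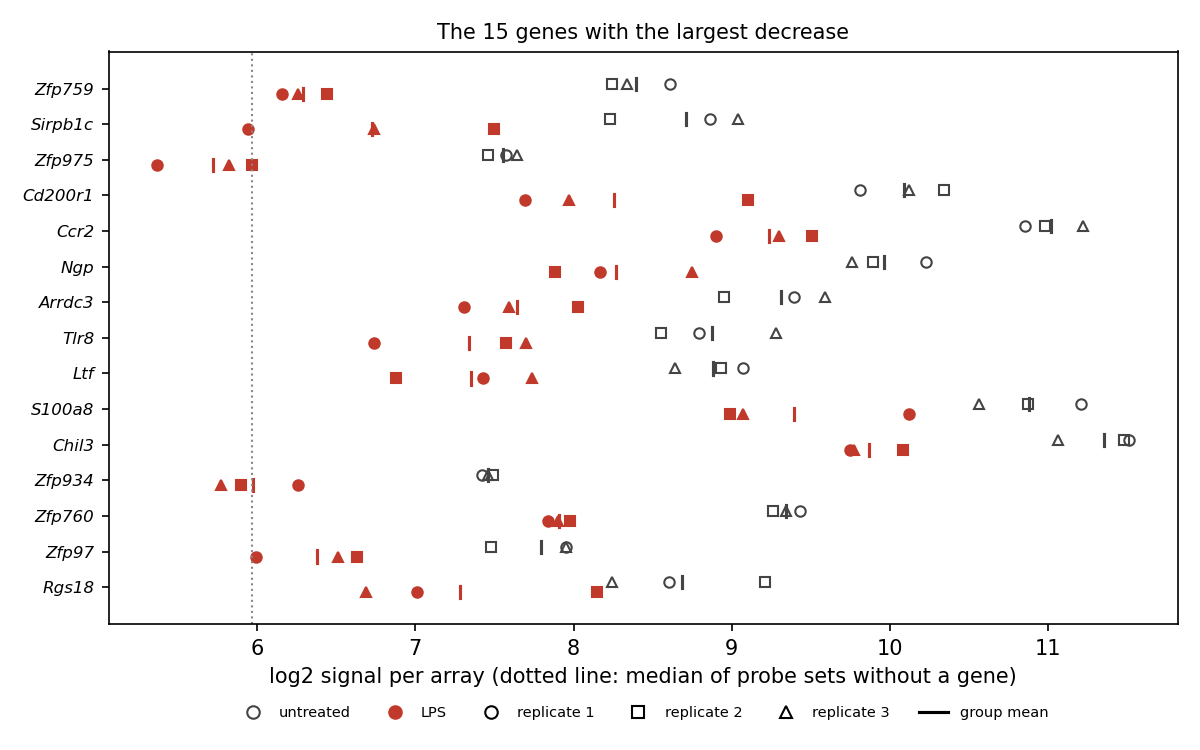
Log2 signal on each of the 6 knockout arrays (horizontal axis) for the 15 called genes with the largest decrease, drawn as for the largest increases. Zfp760 and Zfp934 have closely grouped arrays, whereas the LPS arrays of Sirpb1c run from 5.94 to 7.50 and those of Rgs18, array-dependent with a highest adjusted p of 0.144, from 6.69 to 8.15.

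Some markers of other cells of the marrow culture fell beside these genes. Not called were 12 of 20 neutrophil, 6 of 9 monocyte and 14 of 15 macrophage markers. Over all genes 2.93% fell. Of 20 neutrophil markers, 8 fell and 0 rose. Ngp and Ltf, proteins of neutrophil granules, went from 10.23, 9.89 and 9.76 to 8.17, 7.88 and 8.75 and from 9.07, 8.93 and 8.64 to 7.43, 6.88 and 7.74. S100a8, a subunit of the alarmin calprotectin, went from 11.21, 10.87 and 10.56 to 10.12, 8.99 and 9.07 (2.80-fold lower). All 3 were array-dependent, with highest adjusted p of 0.148, 0.0964 and 0.0942, and Camp, 2.49-fold lower, was not. Leaving out any 1 of the 6 knockout arrays left 2 to 4 of the list called lower, and leaving out both of replicate 2 left 3, whereas the replicate block called 11. Its mean signal was 8.39 to 8.65 on untreated and 7.63 to 7.95 on LPS arrays. Of 9 markers of inflammatory monocytes, 3 fell (Ccr2, Chil3 and Ms4a6c), with list means of 8.90 to 9.15 and 7.83 to 8.52. Chil3 (Ym1), which also counts among the 8 neutrophil markers, fell 2.79-fold, from 11.51, 11.48 and 11.06 to 9.75, 10.08 and 9.77. Of 15 macrophage markers, 1 fell: Lyz2, from 13.24, 13.27 and 13.18 to 12.10, 12.52 and 12.49. Their means were 8.98 to 9.11 and 8.43 to 8.98, and 4 fell without LPS replicate 2. In such mixed cultures fewer cells of a type and less RNA per cell cannot be told apart, and the part of either in the falls of the receptors above was not tested.

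Dendritic cell markers did not fall with them. Of 15, 2 rose and 0 fell, with list means of 10.06 to 10.14 before and 10.14 to 10.28 after LPS. Zbtb46, a factor that marks conventional dendritic cells, went from 8.77, 8.67 and 8.89 to 9.35, 9.45 and 9.55 (1.59-fold, 95% interval 0.44 to 0.90 on the log2 scale). Itgax and Flt3 differed by 0.14 (SE 0.30) and -0.39 (SE 0.22), not called. The list means of other lineages were near background, but not all their markers were. Both group means lay below 7 in 16 of 21 lymphoid and plasmacytoid, 11 of 19 mast cell, basophil and eosinophil, and 10 of 14 stromal markers. Bst2, of the first list, was at 12.13 to 12.26 on untreated arrays, and Cpa3, of the second, at 7.90 to 8.71. The 21 markers of lymphoid and plasmacytoid cells had means of 6.58 to 6.79 and 0 calls, with the T cell gene Cd3e at 5.50 to 6.02. Of 19 mast cell, basophil and eosinophil markers (means 6.07 to 6.39), Prg2 fell 2.07-fold and Hdc rose. Among 14 stromal markers 1 was called, Lum, at 4.38 to 5.01, below background. The share called among all genes was 5.91%. Of 30 cell cycle genes 0 were called, although Mki67 was at 9.85, 10.97 and 10.01 before and 11.01, 11.63 and 11.31 after LPS (adjusted p = 0.0651, and 0.00152 with the block), and 1 was called higher and 4 lower with the block.

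The knockout response was set beside the wildtype one. Of the 230 genes that rose at least 2-fold in knockout cells, 228 also had a positive difference in wildtype cells, and all 71 that fell at least 2-fold had a negative one. The 2 exceptions, named after their values were seen, were Fbxw28, below background at 2.81 to 4.24, and the miRNA gene Mir680-1. The 230 and the 71 were selected on their knockout values, and shared signs over all genes were not counted. In wildtype cells 297 genes (1.34%) were called higher and 52 (0.234%) lower, but there the 3 untreated arrays, which differed from each other by less than other replicates, counted as 1 sample, so the standard errors were larger and the counts cannot be compared. The difference between the responses was tested directly as an interaction. It called 0 genes (0%), with 982 at an unadjusted p below 0.05 and a smallest adjusted p of 0.217 by limma. Its 95% interval reached a median of 0.52 to either side, so smaller differences in single genes would often not be seen. As 12 separate samples, 55 genes were called, with the replicate block as well 112, with array weights 280, and 35 without knockout LPS replicate 2.

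Among genes with large changes, Ptgs2 rose by 5.69 in knockout and 5.44 in wildtype cells on the log2 scale, and the difference between these was 0.25 (SE 0.51). For Il1b the values were 3.32 and 2.44 (difference 0.88, SE 0.48, adjusted p = 0.948), and for Cxcl1 3.53 and 2.98 (0.55, SE 0.32). Plat rose by 1.78 in knockout and 0.91 in wildtype cells, a difference of 0.87 (SE 0.36, adjusted p = 0.948). The 5 genes with the smallest p, predicted genes and small RNAs left aside, were Zfp972, Zfp600, Fthl17e, Krtap22-2 and Btbd35f17. In each the difference was below 0 in wildtype cells and above 0 in knockout cells. Zfp972 was at 7.91, 7.76 and 8.10 before and 8.48, 8.04 and 8.29 after LPS in knockout cells, and at means of 8.41 and 7.54 in wildtype cells (difference 1.22, SE 0.23, adjusted p = 0.397). Zfp600 had a difference of 2.00 (SE 0.40, adjusted p = 0.411). None of the 5 passed the threshold, and Krtap22-2 was below the background median on every knockout array.

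**Figure D5:**
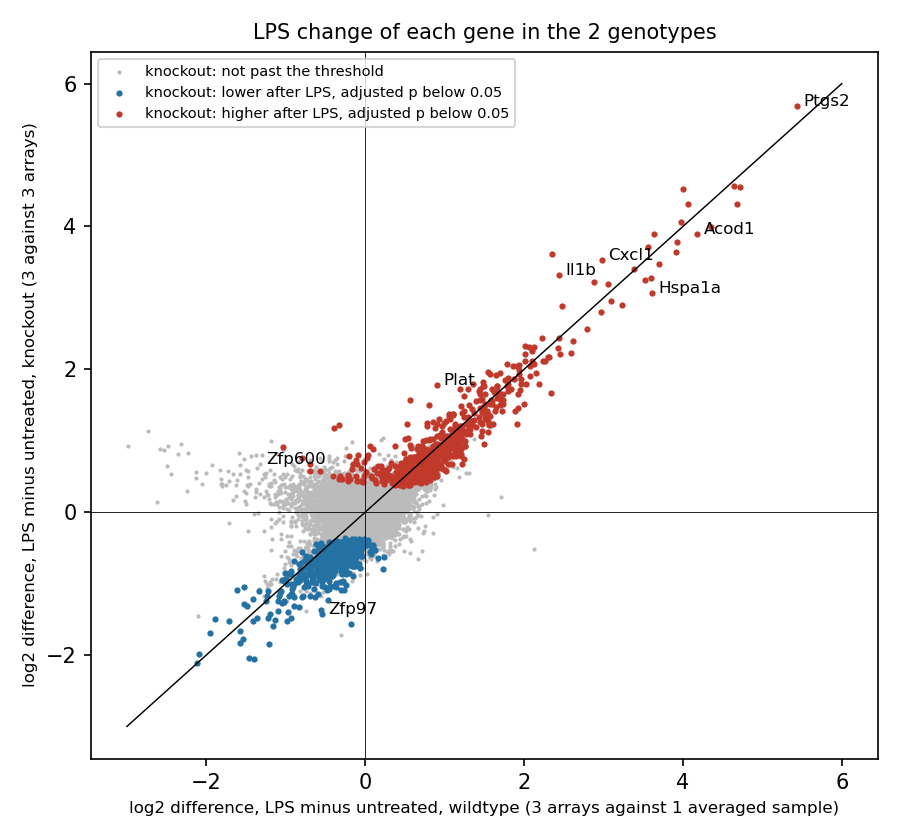
Log2 difference after LPS in Arc knockout cells (vertical axis) against that in wildtype cells (horizontal axis), 1 point per gene, coloured by the call in knockout cells, with the line of equal change. Ptgs2 is at 5.69 and 5.44, while Plat (1.78 and 0.91) lies above the line and Zfp97 (-1.42 and -0.55) below.

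Genes of miRNAs were also on the arrays, among them a called pair that shares a seed. Of 484 miRNA genes tested, 20 were called, 13 higher and 7 lower, beside 1311 of 22180 (5.91%) over all genes. Of the 20, 7 had a mean of 7 or more in both groups. The pair was chosen after its values were seen. Mir221 went from 4.70, 5.27 and 4.61 to 7.83, 9.18 and 8.50 (12.5-fold, log2 3.64, SE 0.31, adjusted p = 7.68e-05), and Mir222 from 5.71, 5.51 and 5.34 to 6.85, 9.03 and 8.00 (5.44-fold, log2 2.44, SE 0.43). The untreated means of both were below the background median of 5.97. LPS replicate 1 was the lowest LPS array in both. Their RefSeq positions in GRCm38.p6 are chrX:19146307-19146329 and chrX:19146901-19146923, on the minus strand. The mature 3p forms are shown because bases 2 to 8, the seed that pairs with target transcripts, are the same (capitals).
mmu-miR-221-3p: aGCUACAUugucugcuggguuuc
mmu-miR-222-3p: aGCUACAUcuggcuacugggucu
The labels do not say whether the probes read the primary transcript, the hairpin or the mature form, so the values are those of the genes and not of mature miRNA.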

How the data were processed

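Whole-transcript arrays (MoGene 2.0) measured total RNA. The deposited values are log2 signals, 1 per probe set and array; the authors' processing notes name limma, with no version, while the background correction and normalization are not stated there. Array medians lay between 6.50 and 6.67. Of 34390 probe sets, 23521 carried 1 gene in GEO's annotation, 1814 several and 9055 none. Each of 22180 genes was read from the probe set with its highest 12-array mean, and 21994 symbols (99.2%) were found in the RefSeq table of GRCm38.p6. Precision is limited by how many arrays there are: a 95% interval reached a median of 0.30 on the log2 scale to either side.

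One mean per group was fitted with limma 3.58.1 (R 4.3.3) and moderated with eBayes, on 10 samples with 6 residual degrees of freedom. The 3 untreated wildtype arrays were averaged to 1 sample, since the SD of the differences between them (0.226 to 0.232) was smaller than in the other groups (0.247 to 0.435). The untreated wildtype mean therefore adds nothing to the estimate of spread. Calls needed an adjusted p under 0.05 (Benjamini-Hochberg). The interaction is the knockout minus the wildtype difference. The fit was tested on simulated data.

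Same-numbered samples deviated together from their group means in all 9 pairs checked: residual correlations were 0.381, 0.299 and 0.196 between untreated and LPS-treated knockout arrays, 0.338, 0.358 and 0.228 between the LPS arrays of both genotypes, and 0.145, 0.196 and 0.175 between untreated knockout and wildtype LPS arrays. The replicate number was therefore also fitted as a block, on 9 arrays. This pairing comes from the data and is not stated in the labels.

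Named genes are Arc, the 15 largest increases and 15 largest decreases among called genes with no overlap between groups and a mean of at least 7 in the higher group, up to 5 called members in each direction and 3 bright uncalled members of each of 44 gene lists, and 5 genes for the interaction. Predicted genes, Rik and LOC clones, olfactory and vomeronasal receptors, and miRNA and other small RNA genes were left out of the first and last. The members and lists were chosen with earlier results of these data known. Of 881 listed symbols, 813 were measured. Promoters, 250 bases before to 50 after the start, and miRNA sequences are RefSeq's. Near-identical genes may share probes. Alternatives covered the samples fitted, the block, normalization, a signal filter, the probe set rule, the variance model and each array left out.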

Additional observations from a re-analysis of the deposited data

How the results depend on the processing

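There were 24 alternatives, of which the block on 12 samples served the interaction only. Of the 162 named genes past the threshold, 0 reversed direction and 87 stayed past it in all alternatives in which they were tested. The counts moved more. With array weights 1975 genes were called higher, 2723 lower, 138 lower at least 2-fold, and 280 for the interaction, where the weights were estimated without reaching convergence. With 12 separate samples 1149 were lower and 55 called for the interaction. With only the 6 knockout arrays 426 were lower. With the replicate block 1360 were lower (9 arrays) and 112 were called for the interaction (12 samples). On the 6 knockout arrays the block called 649 higher and 714 lower, and it ended the call of 0 of the 162 genes on 9 arrays and of 9 on 6. Calls that the block adds are printed beside some of the gene lists and not beside others. Among the latter, the block called 99 Zfp genes lower in place of 75. It also called 3 macrophage markers lower in place of 1, and 3 genes of the TLR4 list in place of 1. Without both knockout arrays of replicate 2, 435 were higher, 111 lower at least 2-fold and 1 called for the interaction. Without the 4 LPS arrays of replicates 2 and 3, 269 were higher, 293 lower and 192 lower at least 2-fold. With a term for these arrays 153 were lower at least 2-fold and 2 were called for the interaction. Leaving out 1 array in turn gave 376 to 688 higher, 233 to 979 lower, 208 to 256 higher and 57 to 141 lower at least 2-fold, and 0 to 35 for the interaction, with 35 without knockout LPS replicate 2 and 1 without knockout untreated replicate 1. Fits with fewer samples have fewer degrees of freedom by construction, and the cause of the other shifts was not tested. Signals near the background median of 5.97 limit how far a fall can be followed.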

Other observations

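Several of the larger changes lay outside the gene lists and the named genes, and are given here as values, chosen after these were seen. Among genes that rose, Pvr, the poliovirus receptor and a ligand of the lymphocyte receptors Tigit and Cd226, went from 9.07, 8.54 and 8.72 to 11.99, 11.90 and 12.10 (9.31-fold, SE 0.15, adjusted p = 1.71e-06 by limma). Txnrd1, thioredoxin reductase, and Taf4b, a subunit of a general transcription factor, had the closest arrays. Txnrd1 rose 3.67-fold from 10.03, 10.06 and 10.03 to 11.94, 11.91 and 11.89, and Taf4b 3.75-fold from 7.38, 7.38 and 7.34 to 9.28, 9.29 and 9.26. Errfi1, an inhibitor of the EGF receptor, rose 3.78-fold to 9.95, 9.70 and 9.87. Pgf, placental growth factor, rose 3.52-fold to 9.02, 9.61 and 8.82. Lrrc32 (GARP), which holds latent TGF-beta at the cell surface, rose 4.49-fold, with LPS arrays as far apart as 7.48 and 9.39. Ptx3, a soluble pattern recognition molecule, was 5.26-fold higher on arrays at 7.89, 10.44 and 9.46, and lost the call without 1 array in 4 of 6 cases (highest adjusted p 0.101).

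Among genes that fell, Sox4, a transcription factor of progenitor cells, went from 9.28, 8.83 and 9.12 to 7.97, 7.95 and 7.72 (2.29-fold lower, SE 0.15, adjusted p = 9.47e-04 by limma). Tnfaip8l2 (TIPE2), an inhibitor of Toll-like receptor signalling, fell 2.27-fold from 9.36, 9.36 and 9.29 to 8.02, 8.47 and 7.97. Tifab, which binds the adaptor Tifa, fell 2.38-fold to 7.09, 7.64 and 7.36. Abcd2, a peroxisomal transporter, fell 2.29-fold to 7.56, 8.03 and 8.08.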
